A study of Mus musculus with 426 samples.

Results

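Mouse chromosome 11 was read as 246 of the 5000 bins into which the nuclear genome had been divided, and as 246 of the 4730 bins on chromosomes 1 to 19. The members are every bin that the deposited DNA count table places on chromosome 11, ordered by start position, and no bin was left out: all 246 passed the filter on low counts. They make up 5.20% of the autosomal bins. The first bin spans 3481659 bp, and the others span 446004 to 639349 bp with a median of 472153 bp. The chromosome length implied by the bin positions is 121843856 bp, in the mm9 build. Gene positions on that build were not used here, so no bin is tied to Trp53 or to any other gene.

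The cells came from an orthotopic model of mouse pancreatic cancer. KPC1199-EGFP tumour cells, 50000 in matrigel, had been placed in the pancreas of C57BL/6 males aged 6 to 8 weeks, and the tumours grew for 6 to 8 weeks. Single cells were sorted from the primary tumour and from other organs, and RNA and DNA of each cell were amplified together in 1 tube, a protocol called GTO-seq. The table holds 420 single-cell libraries from 3 mice, counted here as 418 cells, and 6 bulk libraries.

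Cells from the primary tumour fall into 4 sorts, each from all 3 mice: CD45+ cells (a marker of leukocytes), GFP+ cells, GFP+EpCAM+ cells and EpCAM+ cells (EpCAM marks epithelium). The peritoneum of 3 mice, and the kidney, liver and spleen of mice 2 and 3, gave further GFP+ cells. Every animal carried the injected tumour, the donors of the CD45+ cells included. The injected cells are 1 established line, which limits the tumour groups as a model. CD45+ cells, taken as the diploid host reference, and tumour cells therefore differ in cell type as well as in origin.

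Copy number in single cells is read from how many DNA reads fall into a bin relative to the rest of the genome: in a diploid cell each autosome has 1 copy from each parent, and a gained or lost stretch moves all of its bins together. Chromosome 11 carries Trp53, which encodes the tumour suppressor p53, a transcription factor that stops the cell cycle or triggers cell death after DNA damage. The KPC model carries a mutant Trp53 allele in the pancreas. Other cancer genes of the chromosome include Erbb2, a growth factor receptor, Brca1, a DNA repair gene, Nf1, a tumour suppressor, and Top2a, a topoisomerase of dividing cells.

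Of the 418 cells, 318 had at least 50000 DNA reads and were used: 53 CD45+, 63 GFP+, 27 GFP+EpCAM+ and 22 EpCAM+ cells from the pancreas, and GFP+ cells of peritoneum (74), kidney (40), liver (10) and spleen (29). Their depth ran from 50522 to 3255873 reads with a median of 584486, which left a median of 112.75 reads in a chromosome 11 bin. Chromosome X, a single copy in cells of the male hosts, lay at 0.497 to 0.505 of the autosomes in the CD45+ cells of the 3 mice. In the other groups it lay at 0.419 to 0.731. The sex of the injected line is not stated here, so 1 copy is not assumed for its cells. The summed level of 8 leukocyte marker genes was 7118 to 9620 CPM (counts scaled to library size) in CD45+ cells and at most 813 CPM elsewhere, with none of the 8 genes at 0 in any group. Of the epithelial markers, 1 was at 0 in the liver. The 8 epithelial markers summed to 9810 to 20889 CPM in the 2 EpCAM-sorted groups and to 210.2 to 345 CPM in the spleen. In CD45+ cells they summed to 113 to 1682 CPM, and Krt19, an epithelial keratin, had 352 CPM in mouse 2 against 4.50 and 11.2 CPM in mice 1 and 3. Summed levels of 8 fibroblast markers reached 14723 CPM in GFP+ primary cells, 16380 CPM in the peritoneum and 17793 CPM in the spleen, against at most 233 CPM in CD45+ cells. All 8 fibroblast and 5 endothelial markers were detected in every group, and their part in the DNA results below was not tested.

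Each bin count was divided by the mean autosomal bin count of its cell, so 1 is the level of an average autosome. The chromosome 11 ratio of a cell is the mean over the 246 bins; it was averaged over the cells of a mouse and then over mice. In CD45+ cells the mean ratio was 0.995 in mouse 1, 1.17 in mouse 2 and 1.06 in mouse 3, or 1.07 ± 0.087 (SD, n = 3). Without mouse 2 the CD45+ mean was 1.03. The CD45+ set of mouse 2 had the most Krt19 RNA of the 3. It also had the most RNA counts per DNA read and the fewest DNA reads, a median of 416234 against 1293275 and 731355. The part of other cell types, depth or RNA content in its ratio was not tested. GFP+ primary cells had 1.05, 1.33 and 1.27, or 1.22 ± 0.149 (SD, n = 3). Each of the 3 mice was higher in GFP+ than in CD45+ cells, but the groups overlapped because GFP+ cells of mouse 1 lay below CD45+ cells of mouse 2.

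GFP+ cells of the peritoneum had mean ratios of 1.14, 1.33 and 1.22, or 1.23 ± 0.098 (SD, n = 3). Kidney cells had 1.20 in mouse 2 and 1.23 in mouse 3, and spleen cells had 1.38 and 1.18. Both kidney and both spleen values lay above all 3 CD45+ values. Liver cells, 5 per mouse, had 1.06 and 1.11, within the CD45+ range.

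The EpCAM-sorted cells of the primary tumour stayed closer to the leukocytes. GFP+EpCAM+ cells had mean ratios of 1.05, 1.11 and 1.26 (1.14 ± 0.108, SD, n = 3), and EpCAM+ cells had 1.01, 1.07 and 0.935 (1.00 ± 0.0678, SD, n = 3). In order, the group means ran from spleen through peritoneum, GFP+ primary, kidney, GFP+EpCAM+ primary, liver and CD45+ to EpCAM+ primary. For each pair of neighbours in that order, the ranges over mice overlapped. A whole-chromosome ratio is a score over the members, so it was described and not tested.

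A mean over bins is pulled up by a few high bins, so the median chromosome 11 bin over the median autosomal bin of the cell was computed as well. On this scale CD45+ cells had 0.982, 1.07 and 0.991 in the 3 mice, and GFP+ primary cells 1.04, 1.3 and 1.21. Peritoneum cells had 1.14, 1.25 and 1.20, kidney cells 1.22 and 1.22, and spleen cells 1.34 and 1.19. Peritoneum, kidney and spleen values did not overlap with CD45+ values, whereas GFP+ primary, liver (1.05 and 1.12), GFP+EpCAM+ and EpCAM+ values did. None of the 4 GFP+ sites outside the primary tumour lay apart from GFP+ primary cells on either scale. The comparisons with CD45+ cells share those CD45+ sums, and the comparisons with GFP+ primary cells share the GFP+ sums.

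**Figure D1:**
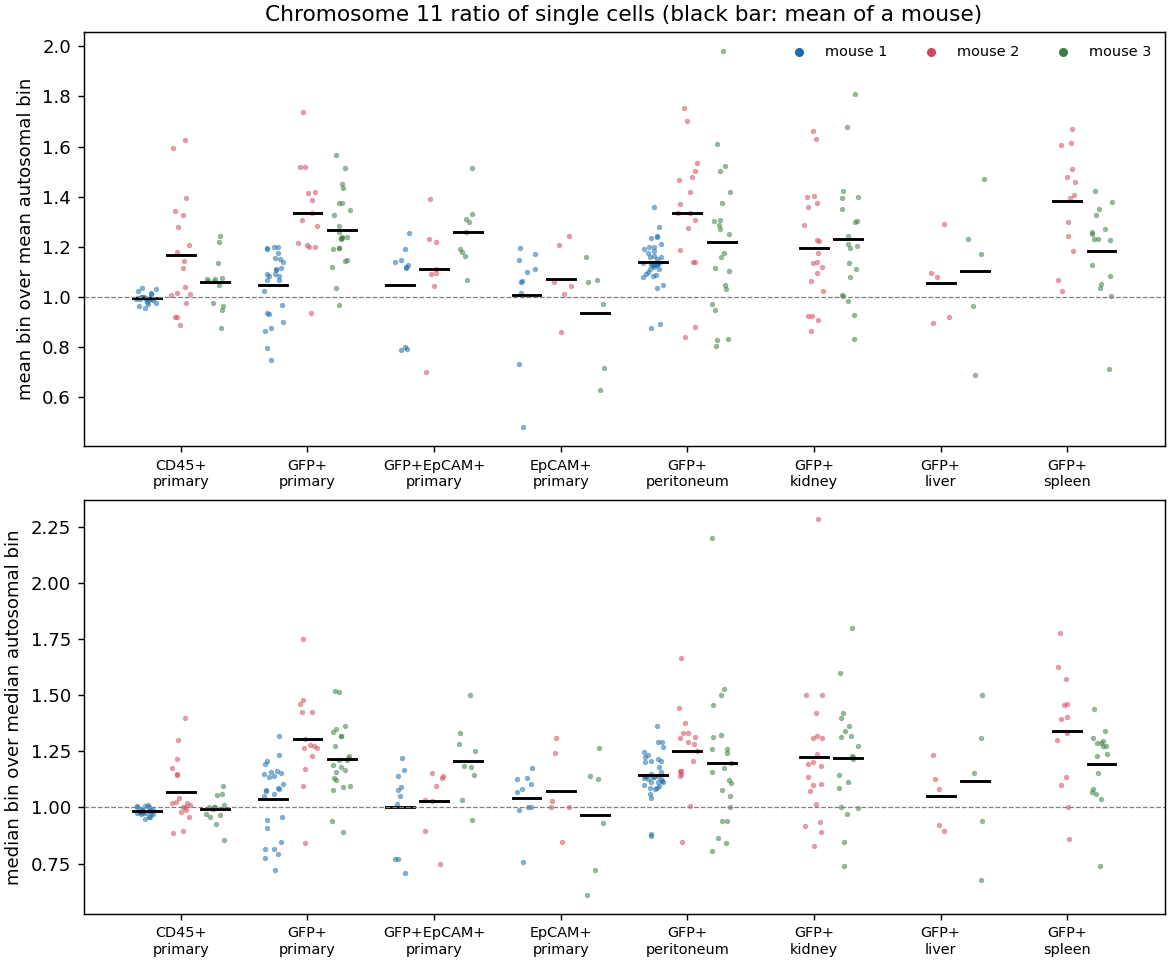
Chromosome 11 ratio of each of the 318 cells by sort and site, as the mean bin (top) and the median bin (bottom) over that of the autosomes; colours mark the mouse, black bars the mean of a mouse, and the dashed line 1. CD45+ cells of mouse 1 sit in a narrow strip at 0.955 to 1.04 on the top axis, while cells of CD45+ mouse 2 run from 0.889 to 1.63.

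The spread between cells was large nearly everywhere. Cells of CD45+ mouse 1 had a standard deviation of the chromosome 11 ratio of 0.0200 over 22 cells, and in the other 20 sets of 1 mouse and 1 group it was 0.0911 to 0.294. To even out counting noise, 317 cells were thinned to 50000 autosomal reads (1 cell had fewer). Thinning cannot remove a dependence of the ratio itself on depth. Before thinning, Pearson r of the mean ratio with log10 autosomal reads was -0.52 in CD45+ and -0.25 in GFP+ primary cells. It was -0.53 in GFP+EpCAM+ and 0.29 in EpCAM+ cells. For the other organs r was -0.43 (peritoneum), -0.17 (liver), -0.32 (spleen) and -0.48 (kidney). The part of depth in the spread was not tested. After thinning, the standard deviation was 1.51 times what counting alone gives in CD45+ cells of mouse 1 and 4.52 to 14.7 times in the others. CD45+ cells of mouse 2 were among the wide sets, at 10.7 times.

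Among the 19 autosomes, the spread of chromosome 11 was above the median of the 18 others in 16 of 18 tumour-gate sets and in 1 of 3 CD45+ sets. It was the widest autosome in peritoneum mouse 2 (SD 0.247 against a median of 0.121 for the others), in liver mouse 3 (0.294 against 0.122) and in CD45+ mouse 2 (0.223 against 0.111). In peritoneum mouse 3 it was the second widest, at 0.284 against 0.134. By level, chromosome 11 was never the highest autosome by mean ratio, and it ranked 2 of 19 in 7 sets: GFP+ primary, peritoneum and spleen mouse 2, kidney and GFP+EpCAM+ mouse 3, and CD45+ mice 2 and 3. By the median bin it ranked 1 in CD45+ mouse 2, so a high rank was not limited to tumour gates.

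Library chemistry moved with these values in several groups. In all, 120 of the 318 cells had no more RNA counts than DNA reads, and the rest held more RNA than DNA. Over the cells of a group, the mean ratio correlated with log10 RNA counts per DNA read at Pearson r = 0.59 in CD45+ (53 cells), 0.34 in GFP+ primary (63), 0.61 in peritoneum (74) and 0.63 in spleen cells (29). In GFP+EpCAM+ cells r was 0.48 (27 cells), in kidney cells 0.27 (40), in liver cells 0.05 (10) and in EpCAM+ cells -0.14 (22). With the median-bin ratio in place of the mean ratio, r was 0.46 in CD45+ cells and -0.03 to 0.39 in the other groups. The cells of a group share mice, and both measures share the DNA read total, so these are descriptions. With the RNA-rich cells left out, an alternative chosen after seeing the data, the mean ratio was 1.13 in the peritoneum of mouse 1 (16 cells), 0.954 in mouse 2 (3 cells) and 1.09 in mouse 3 (11 cells), a mean of 1.06. GFP+ primary cells then had 1.09 in mouse 1 (9 cells) and 1.27 in mouse 2 (6 cells), with no such cell in mouse 3. CD45+ cells had 0.992, 0.978 and 1.05 (15, 4 and 4 cells), kidney cells 1.17 and 1.18 (9 and 12) and spleen cells 1.13 and 1.14 (2 and 9).

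Along the chromosome, the higher level of GFP+ cells was not uniform. In each cell the median bin of 13 consecutive windows of 10 Mb (the last one shorter) was divided by the cell's median autosomal bin and then by the same value of CD45+ cells. In CD45+ cells the windows of the 3 mice ran from 0.959 to 1.04. These medians set the scale, so values near 1 follow from it. Single cells varied more: at 100 to 110 Mb the quartiles of CD45+ cells of mouse 2 were 0.963 and 1.53. In GFP+ primary cells the group mean was 1.06 to 1.13 in the windows from 0 to 50 Mb, 1.29 ± 0.202 (SD, n = 3) at 50 to 60 Mb and 1.46 ± 0.387 (SD, n = 3) at 100 to 110 Mb.

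The wide error there came from mouse 1. At 100 to 110 Mb the GFP+ primary ratio was 1.05 in mouse 1, 1.82 in mouse 2 and 1.52 in mouse 3. At 30 to 40 Mb the same mice had 1.13, 1.01 and 1.07, so that mice 2 and 3 rose toward the distal end while mouse 1 stayed level. The libraries of these mice differed too. GFP+ primary cells had a median of 986895 DNA reads in mouse 1, 522858 in mouse 2 and 422505 in mouse 3. Their mean log10 RNA counts per DNA read was 0.132, 0.389 and 0.845. Mouse, depth and RNA content cannot be told apart in these profiles.

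GFP+ cells of the peritoneum had the same shape in mice 2 and 3. The peritoneum ratio at 100 to 110 Mb was 1.18 in mouse 1, 1.64 in mouse 2 and 1.54 in mouse 3, and at 30 to 40 Mb it was 1.16, 1.02 and 1.04. Depth and RNA content differed here as well. The medians were 1372554, 294086 and 375165 DNA reads, and the mean log10 RNA counts per DNA read -0.0165, 0.628 and 0.252. Spleen cells had 1.87 and 1.53 at 100 to 110 Mb, against 0.982 and 1.06 at 30 to 40 Mb. Kidney cells had 1.41 and 1.346 against 1.05 and 1.22, a smaller contrast. Between the raised stretches lay a lower one: the window from 80 to 90 Mb had a group mean of 1.09 in the peritoneum and 1.22 in the spleen, below both of its neighbours.

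The profiles of liver and EpCAM-sorted cells differed from this shape. Liver cells had 0.823 and 1.36 at 100 to 110 Mb in mice 2 and 3. GFP+EpCAM+ cells had 1.03, 1.13 and 1.76, with only mouse 3 raised. EpCAM+ cells had 1.06, 1.28 and 0.877 at 100 to 110 Mb and 1.11, 1.29 and 0.569 at 110 to 120 Mb. These sets rest on 5 to 10 cells each, and no test compares their profiles.

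**Figure D2:**
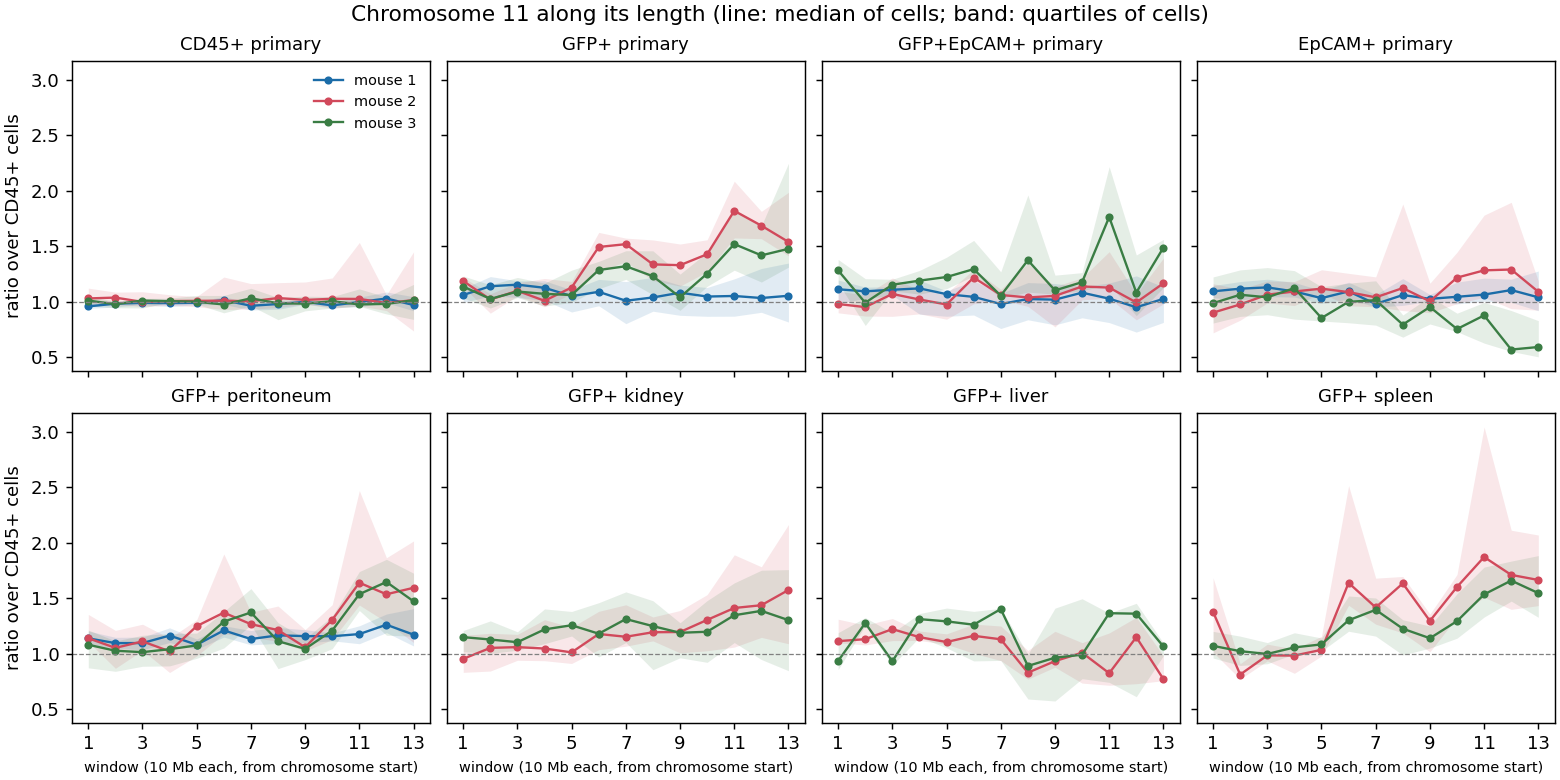
Ratio over CD45+ cells in 13 windows along chromosome 11, numbered from its start, 1 panel per group; lines give the median of the cells of a mouse and bands their quartiles. Windows 11 and 12 (100 to 120 Mb) are the high end in GFP+ primary and peritoneum cells of mice 2 and 3 and in spleen cells, and there the mouse 1 lines stay between 1.01 and 1.26. In the GFP+ primary and peritoneum groups, mouse 1 also had the deepest cells and the least RNA per DNA read.

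Individual cells gave the same contrast. The chromosome was divided at position 63853477 into proximal and distal bins, and bins with a local spike (defined with the called bins) were left out, which kept 87 proximal and 75 distal bins. Distal bins were higher than proximal bins, both as ratios over CD45+ cells, in 27 of 29 spleen cells, 58 of 74 peritoneum cells, 45 of 63 GFP+ primary cells and 27 of 40 kidney cells. They were higher in 25 of 53 CD45+ cells, 15 of 27 GFP+EpCAM+ cells, 8 of 22 EpCAM+ cells and 5 of 10 liver cells. Cells of 1 mouse are not independent, so these counts carry no test.

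By mouse, the GFP+ primary median was 1.1 proximal and 1.09 distal in mouse 1, 1.05 and 1.42 in mouse 2, and 1.06 and 1.23 in mouse 3. Peritoneum cells had 1.13 and 1.17, 1.07 and 1.28, and 1.02 and 1.21 in the same order. Spleen cells had 0.992 and 1.5 in mouse 2 and 1.06 and 1.32 in mouse 3. In each of the 14 GFP+ primary cells of mouse 2 the distal bins were the higher ones, against 11 of 26 in mouse 1.

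Cells with little RNA gave smaller sets. Among cells with no more RNA counts than DNA reads, the proximal and distal medians were 1.19 and 1.46 in GFP+ primary mouse 2 (6 cells), 1.12 and 1.33 in kidney mouse 2 (9 cells), 1.07 and 1.21 in spleen mouse 2 (2 cells), and 1.12 and 1.31 in spleen mouse 3 (9 cells). Peritoneum cells had 1.13 and 1.18 in mouse 1 (16 cells), 0.820 and 1.08 in mouse 2 (3 cells), and 1.09 and 1.18 in mouse 3 (11 cells), the last a smaller contrast than over all cells. Kidney mouse 3 had 1.20 and 1.20 (12 cells), and GFP+ primary mouse 1 had 1.13 and 1.11 (9 cells). In CD45+ cells the same selection gave 0.998 and 1.00, 1.04 and 1.01, and 1.02 and 1.00.

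**Figure D3:**
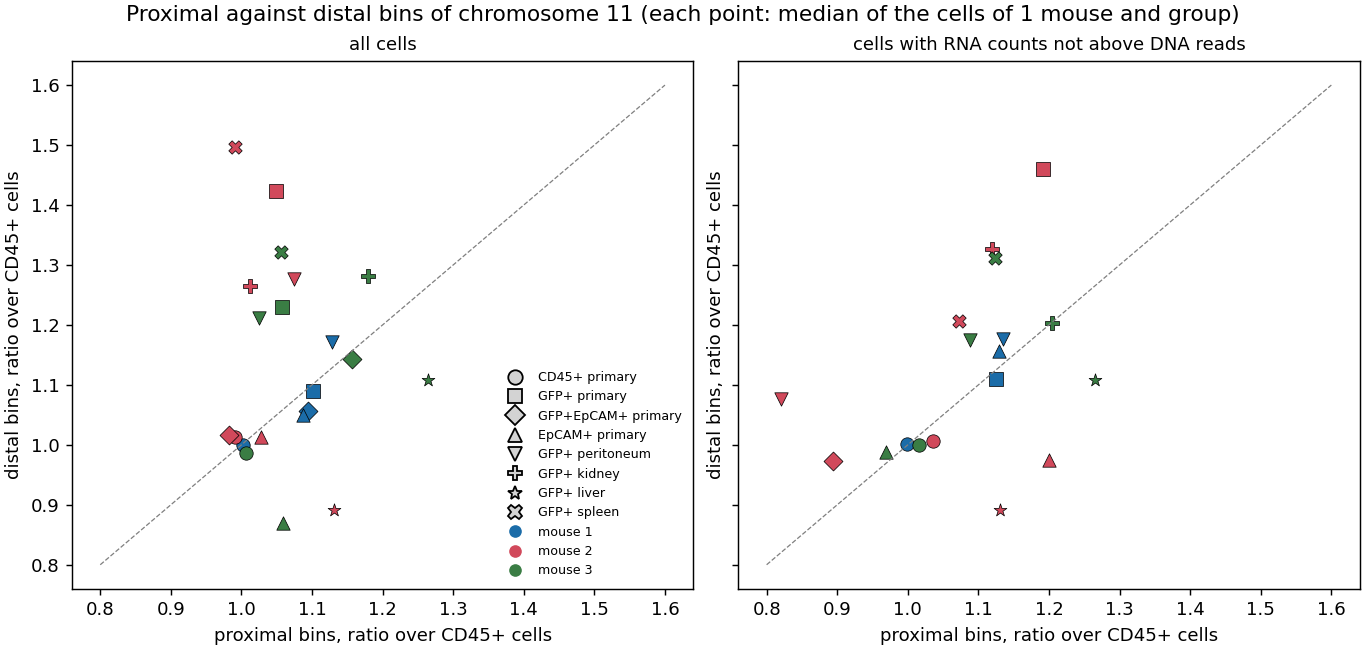
Median ratio over CD45+ cells of proximal (x axis) and distal (y axis) bins of chromosome 11, 1 point per mouse and group, for all cells (left) and for cells with RNA counts not above DNA reads (right); the dashed line marks equal values. GFP+ primary, peritoneum, kidney and spleen points of mice 2 and 3 lie above the line in the left panel, and both liver points lie below it. CD45+ points, which set the scale, lie close to the line.

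The position that best divided the chromosome into 2 stretches of at least 10 bins was found for each mouse and group by least squares, with spiked bins left out. It fell at position 50494083 in GFP+ primary mouse 2, 44456400 in GFP+ primary mouse 3, 51934909 in both peritoneum mouse 2 and peritoneum mouse 3, 51934909 in kidney mouse 2, 43053464 in kidney mouse 3, 50494083 in spleen mouse 2 and 52456902 in spleen mouse 3. The stretch after it was the higher one in each of these 8 sets, and the split explained 4.55% to 15.9% of the variance between bins. CD45+ cells also gave splits: the later stretch was higher in mouse 2 (1.05 to 1.21, 8.31% of the variance) and mouse 3 (0.974 to 1.1, 2.18%), and lower in mouse 1 (0.934 to 0.802, 9.40%). A later-higher split was therefore not limited to tumour gates. In GFP+ primary mouse 1 the best split was at 74838955, with the later stretch lower (0.878 against 1.05). Peritoneum mouse 1, with a split at 95166906, also had the later stretch lower (0.932 against 1.04). In the liver the later stretch was lower in mouse 2 (0.833 against 1.09) and higher in mouse 3 (1.29 against 1.06). With spiked bins kept, the splits of the 8 sets lay elsewhere, for example at 96548575 in both peritoneum sets and at 8864852 in kidney mouse 3. The splits have no test, and a least-squares split always returns a position.

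Single bins were tested with edgeR's quasi-likelihood method on counts summed per mouse and group, adjusted over all 4730 autosomal bins by the Benjamini-Hochberg method and called at 0.05. Against CD45+ cells, GFP+ primary cells had 1 of 246 chromosome 11 bins called higher and 0 lower, where 1.16% of all autosomal bins were called. Peritoneum cells had 2 higher and 0 lower (9 and 2 by DESeq2), against 1.14% of all bins, and spleen cells 3 higher and 0 lower, against 2.05%. Kidney cells had 0, against 0.444% of all bins. There 16 chromosome 11 bins (6.50%) had an unadjusted edgeR p under 0.05, beside 9.05% of all bins. On chromosome 11 the shares called were below these backgrounds, so the counts do not set the chromosome apart.

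EpCAM-sorted and liver cells gave the remaining calls. GFP+EpCAM+ cells had 7 bins higher and 4 lower, against 8.84% of all bins called, a lower share of the chromosome (4.47%) than of the autosomes. A fit with the mouse as block called 23, of which 15 were higher and 8 lower, while the DESeq2 split was 23 and 5. EpCAM+ cells had 0 bins called against 1.31% of all bins (2 by DESeq2, 1 with the mouse as a block). At an unadjusted edgeR p under 0.05 they had 14 (5.69%), beside 12.9% of all bins. Liver cells had 0 against 1.06% (9 by DESeq2, 2 with the block). Their unadjusted count was 26 (10.6%), beside 20.1% of all bins. The kidney count was 1 by DESeq2, and the spleen count was 6 with the mouse as a block. Counts with the block come without the share of all bins, so they are not read as a result about the chromosome. Against GFP+ primary cells, no bin on any autosome was called in the peritoneum, kidney, liver or spleen (0% in each) by edgeR. On chromosome 11 those comparisons had 1, 1, 49 and 7 bins at an unadjusted p under 0.05, and DESeq2 called 6 bins in the liver and 0 in the others. Over all bins the unadjusted shares were 1.18%, 2.03%, 14.2% and 4.08%, beside 0.407%, 0.407%, 19.9% and 2.85% on chromosome 11, and DESeq2 called 1.29% of all bins in the liver beside 2.44%. Against CD45+ cells DESeq2 called 2.30% to 23.3% of all bins, in each comparison a larger share than on chromosome 11.

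Taken over the 246 bins, the median leaned up in most groups, but not all bins did. The lower quartile of the log2 difference from CD45+ cells was 0.05 in kidney cells. It was -0.02 in GFP+ primary, -0.06 in peritoneum, -0.12 in spleen and -0.23 in liver cells. The median log2 difference of the 246 bins from CD45+ cells was 0.16 in GFP+ primary, 0.12 in peritoneum, 0.17 in kidney, 0.15 in spleen and 0.09 in liver cells, while the median of all autosomal bins was -0.03, -0.01, -0.01, -0.06 and -0.02. The share of chromosome 11 bins above 0 was 72% in GFP+ primary, 67.9% in peritoneum, 78% in kidney and 63.4% in spleen cells, against 44% to 48.9% of all bins. It was 62.6% in EpCAM+ (51.1% of all bins), 58.1% in liver (48.3%) and 45.5% in GFP+EpCAM+ cells (42.3%). EpCAM+ cells had a median of 0.08 against 0.01. In GFP+EpCAM+ cells the median was -0.06, as for all bins, and it turned to 0.06 with scaling factors from the trimmed mean of M values (TMM), where all bins had 0.05.

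The bin called in more than 1 comparison was bin 115, at chr11:59574154-60027647 in mm9. Its mean ratio was 0.860, 0.553 and 0.632 in CD45+ cells of the 3 mice, 1.04, 1.27 and 1.46 in GFP+ primary cells, and 1.19, 1.37 and 1.76 in peritoneum cells. Spleen cells had 2.01 and 1.61, and kidney cells 1.22 and 1.21. All of these GFP+ values lay above all CD45+ values, whereas liver (0.683 and 1.21), GFP+EpCAM+ (1.09, 0.842 and 0.617) and EpCAM+ values (0.750, 0.654 and 0.614) overlapped them.

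For bin 115 the log2 difference from CD45+ cells was 0.85 (SE 0.21, edgeR adjusted p = 0.0439) in GFP+ primary, 0.91 (SE 0.21, edgeR adjusted p = 0.0296) in peritoneum and 1.11 (SE 0.23, edgeR adjusted p = 0.0144) in spleen cells, in the same direction in each mouse. Without mouse 2 the edgeR adjusted p was 0.396, 0.494 and 0.589, with log2 differences of 0.72, 0.87 and 0.89. Without mouse 3 it was 0.385 in GFP+ primary and 0.242 in peritoneum cells by edgeR adjusted p, and the spleen call stood. A fit of CD45+ and spleen cells alone gave an edgeR adjusted p = 0.12. With RNA-rich cells left out, the difference was 0.90 in GFP+ primary (edgeR adjusted p = 0.19) and 0.77 in peritoneum cells (edgeR adjusted p = 0.0542).

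The other higher calls in GFP+ cells lay near the distal end, in the stretch that was high in the window profile. Bin 239 (chr11:118106870-118560864) was higher in the peritoneum by a log2 difference of 0.98 (SE 0.24, edgeR adjusted p = 0.0423), with 1.16, 2.83 and 2.45 in the 3 mice against 0.795, 0.971 and 1.01 in CD45+ cells. With RNA-rich cells left out, that difference was 0.26 (edgeR adjusted p = 0.558), and its call was lost without any 1 of the 3 mice. In the spleen, bin 235 (chr11:116242886-116732853) had 3.23 and 1.24 in mice 2 and 3 against 0.865, 1.05 and 0.683 in CD45+ cells, and its neighbour bin 236 (chr11:116732854-117188033) had 1.81 and 1.39 against 0.940, 0.599 and 0.624. Their log2 differences were 1.352 (SE 0.36, edgeR adjusted p = 0.0498, and 0.0555 with the mouse as a block) and 1.11 (SE 0.29, edgeR adjusted p = 0.0466). Without mouse 2, neither was called, with log2 differences of 0.53 and 0.76, and without mouse 1 bin 235 was not called.

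**Figure D4:**
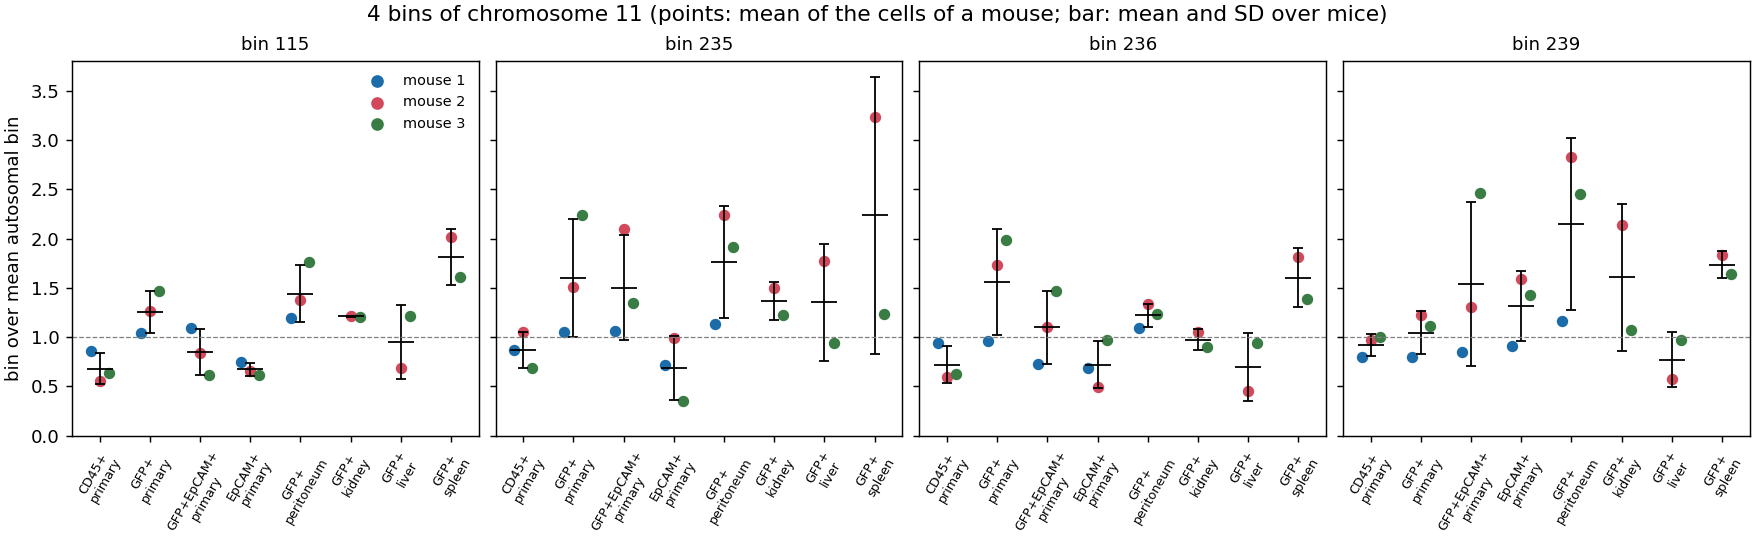
Ratio of the 4 bins called higher in a GFP+ group against CD45+ cells, by group; points are the mean of the cells of a mouse, and bars give the mean and SD over mice. In bin 115 the GFP+ primary, peritoneum, kidney and spleen points lie above 1 and all CD45+ points below 0.9, while the 2 spleen points of bin 235 lie far apart at 3.23 and 1.24.

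Some bins stood above their neighbours. A bin was counted as spiked in a mouse and group where its mean ratio was over 2 times the median of the 11 bins around it, an alternative chosen after seeing the data. This held for 84 of the 246 bins in at least 1 of the 21 sets (34.1%), as for 34.2% of the other autosomal bins. It was recurrent, in 3 sets or more, in 23 bins (9.35%), against 11.4% elsewhere. The share of a cell's chromosome 11 reads that fell in recurrent bins correlated over cells with log10 RNA counts per DNA read at r = 0.73 in CD45+ (53 cells), 0.76 in GFP+ primary (63 cells) and 0.77 in peritoneum cells (74 cells). The first bin was spiked in all 21 sets, with group means of 3.82 to 5.14.

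Of the 15 chromosome 11 bins called in any comparison, 13 were spiked in at least 1 set, 2 of them in 3 sets or more, and bins 115 and 236 were not. A bin that is high in the compared group alone can count as spiked, so the 2 properties are not independent. Each of the 11 bins called in GFP+EpCAM+ cells was among the 13. The largest of them was bin 217 (chr11:107827544-108293142), with 0.988, 2.54 and 2.97 in the 3 mice against 0.947, 0.739 and 0.813 in CD45+ cells (log2 difference 1.38, SE 0.35, edgeR adjusted p = 0.0204). Bin 77 (chr11:41075929-41590264) had 1.29, 2.39 and 3.31 against 0.868, 1.02 and 0.910, and it was spiked in 10 sets, among them GFP+ cells of the spleen at 4.85 and 3.08. Bins 60, 55 and 214 were higher by 0.96, 0.93 and 0.81 on the log2 scale. Bin 98 (1.09) and the lower bin 28 (-1.06) were called with the same direction in 2 of 3 mice.

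Among the lower calls of GFP+EpCAM+ cells, bin 63 (chr11:34284806-34809035) had 1.04, 0.749 and 0.741 against 1.18, 2.06 and 2.19 in CD45+ cells (log2 difference -1.06, SE 0.26, edgeR adjusted p = 0.0167). Bins 62 and 174 had log2 differences of -0.81 and -0.67, and bin 174 stood beside bin 175, which was called higher (0.79). Without mouse 2 or without mouse 3, no chromosome 11 bin was called in GFP+EpCAM+ cells. With spiked bins left out, 3 bins were called higher in GFP+ primary (12.9% of all bins called), 3 in GFP+EpCAM+ (21.7%), 3 in peritoneum (16.5%) and 13 in spleen cells (22.3%), and 2 were called lower in the liver (8.13%). On chromosome 11 the shares were 1.85%, 1.85%, 1.85%, 8.02% and 1.23%, each below its background.

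The last bin (chr11:121344071-121843856) averaged 1.27 in CD45+ cells, and its other group means ran from 0.877 in EpCAM+ cells to 1.40 in the spleen. The bin lowest in CD45+ cells, bin 189 (chr11:94708625-95166905), had 0.697, 0.493 and 0.554 there, 0.641, 0.887 and 0.612 in GFP+ primary cells and 1.21 and 0.987 in the spleen. Neither bin was called in any comparison.

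In GFP+ primary cells of mouse 1, a high chromosome 18 ratio went with a low chromosome 11 ratio. Chromosome 18 is an autosome picked after the values were seen. The limit for counting a cell as high on chromosome 18 was also set after seeing the values: the lowest cell counted had 1.37 and the next below it 1.33. In GFP+ primary cells of mouse 1, 8 of 26 cells joined a chromosome 11 median-bin ratio of 0.720 to 0.944 with a chromosome 18 ratio of 1.39 to 1.76. The other 18 had 0.956 to 1.32 on chromosome 11 and 0.781 to 1.29 on chromosome 18. In the same mouse, 3 of 10 GFP+EpCAM+ cells had a chromosome 18 ratio of 1.37 to 1.6 with chromosome 11 at 0.770 to 1.01. There the other 7 had 0.706 to 1.22 on chromosome 11, so the 2 sets of cells overlapped. Among EpCAM+ cells, 2 of 10 in mouse 1 and 1 of 6 in mouse 3 had such a chromosome 18 ratio, as did 1 GFP+EpCAM+ cell in each of mice 2 and 3 and 1 kidney cell of mouse 2. On chromosome 11 those of EpCAM+ mouse 1 had 0.759 and 1, and that of GFP+EpCAM+ mouse 2 had 0.75. The others were not low: EpCAM+ mouse 3 had 1.14, GFP+EpCAM+ mouse 3 had 1.5 and kidney mouse 2 had 1.07. None was among the 35 peritoneum cells of mouse 1, whose chromosome 18 ratio was 0.673 to 0.942, nor among the 53 CD45+ cells (0.667 to 1.3).

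**Figure D5:**
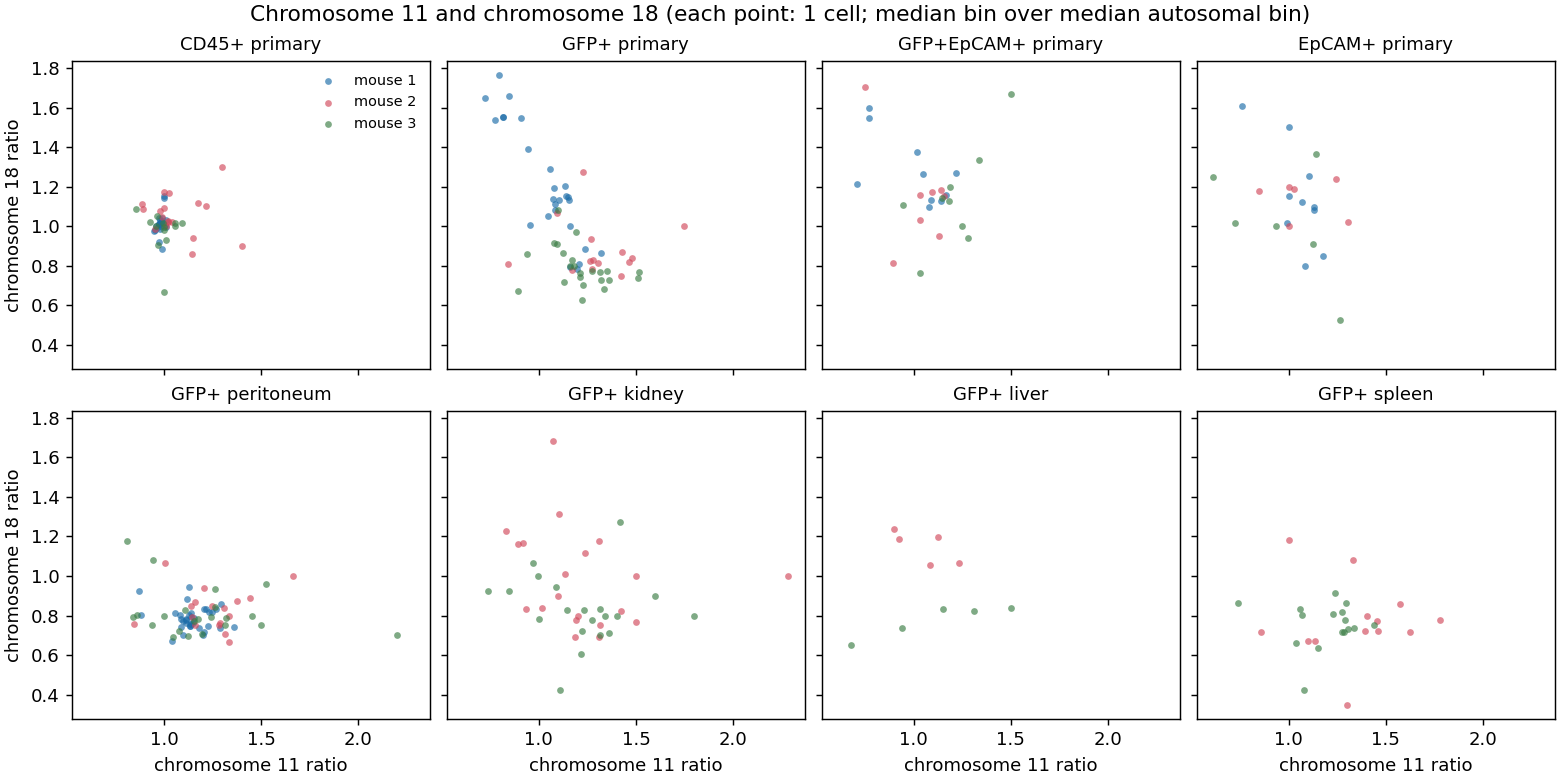
Median-bin ratio of chromosome 11 (x axis) and chromosome 18 (y axis) in each cell, 1 panel per group, coloured by mouse. In GFP+ primary cells, 8 cells of mouse 1 lie at the upper left, with chromosome 18 at 1.39 or more and chromosome 11 at 0.944 or less, while no CD45+ cell exceeds 1.3 on the chromosome 18 axis.

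RNA of chromosome 11 genes was compared in the same sorts, from counts summed per mouse and group over 368 cells. Of 21960 genes tested, 1660 lie on chromosome 11 by name. Against CD45+ cells, edgeR called 18 of them higher and 28 lower in GFP+ primary cells (2.77%, beside 1.88% of all genes). It called 35 and 47 in GFP+EpCAM+ cells (4.94% beside 3.88%), and 12 and 29 in EpCAM+ cells (2.47% beside 1.72%). DESeq2 split its EpCAM+ calls as 126 higher and 101 lower (13.7% beside 12.6%). Peritoneum cells had 4 higher and 9 lower (0.783% beside 0.556%). With the mouse as a block they had 10 and 14 (1.45% beside 0.865%), and by DESeq2 94 and 100 (11.7% beside 9.05%). Spleen cells had 4 and 2 (0.361% beside 0.159%), 6 and 6 with the block (0.723% beside 0.383%) and 73 and 92 by DESeq2 (9.94% beside 9.40%). In each of these the share on chromosome 11 was the larger one, and no test compared the shares.

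In the kidney and the liver edgeR called no gene against CD45+ cells (0% each). There 257 and 288 chromosome 11 genes had an unadjusted edgeR p under 0.05 (15.5% and 17.3%, beside 13.2% and 15.6% of all genes). The block gave 3 and 2 calls (0.181% and 0.120%, beside 0.0638% and 0.0455%). DESeq2 gave 125 and 151 (7.53% and 9.10%, beside 6.51% and 8.19%). Against GFP+ primary cells edgeR called none in any of the 4 sites (0%), with 86, 91, 221 and 85 unadjusted in the peritoneum, kidney, liver and spleen and 11, 14, 53 and 14 by DESeq2. Over all genes the unadjusted shares were 4.70%, 4.71%, 11.7% and 5.08%, beside 5.18%, 5.48%, 13.3% and 5.12% of chromosome 11 genes. The DESeq2 shares were 0.556%, 0.578%, 2.98% and 0.665% of all genes, beside 0.663%, 0.843%, 3.19% and 0.843%. Against CD45+ cells DESeq2 called 6.51% to 18.2% of all genes, beside 7.53% to 19.4% of chromosome 11 genes. The median log2 difference of chromosome 11 genes from CD45+ cells was set beside that of all genes: it was -0.03 against -0.43 in GFP+ primary, 0.13 against -0.34 in peritoneum, -0.15 against -0.48 in kidney and -0.05 against -0.51 in spleen cells. The medians were -0.53 against -0.87 in GFP+EpCAM+, -0.04 against -0.22 in EpCAM+ and -0.60 against -0.67 in liver cells. The sign of several of these chromosome 11 medians changed with the mouse as a block, to 0.04 in GFP+ primary, 0.09 in kidney and 0.15 in spleen cells. DESeq2's size factors moved the median of all genes, in GFP+ primary cells from -0.43 to -1.39, and that of chromosome 11 genes with it to -1. The peritoneum median of chromosome 11 genes turned to -0.61 under them, beside -1.08 for all genes.

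Trp53 RNA was not called in any comparison (edgeR adjusted p from 0.433 to 1). Its level was 2.82, 1.75 and 78.2 CPM in CD45+ cells of the 3 mice and 45.4, 216 and 162 CPM in GFP+ primary cells. GFP+EpCAM+ cells had 92.4, 83.6 and 174 CPM, and EpCAM+ cells 37, 360 and 180 CPM. Peritoneum cells had 17.7, 219 and 173 CPM, kidney cells 110 and 365, liver cells 254 and 76.5, and spleen cells 415 and 70.6 CPM. GFP+ and EpCAM-sorted cells were higher in every mouse with both groups, with 1 exception each in liver and spleen (mouse 3), and CD45+ mouse 3 overlapped several of them. The log2 difference was 1.90 in GFP+ primary cells with an SE of 1.44. The counts do not separate the mutant from the wild-type transcript.

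A list of 41 chromosome 11 genes known in cancer, immunity or matrix, chosen with earlier results of these data known, was read beside this. All 41 were tested, and against CD45+ cells 2 were called higher and 1 lower in GFP+ primary, 2 and 1 in GFP+EpCAM+, 0 and 1 in EpCAM+, 1 and 0 in peritoneum and 1 and 0 in spleen cells, and none in the kidney, in the liver or against GFP+ primary cells. The list's median log2 difference was highest in GFP+ primary cells, at 1.81 against -0.43 for all genes. It was 1.32 in spleen, 0.44 in EpCAM+, 0.38 in peritoneum, 0.28 in kidney and 0.17 in GFP+EpCAM+ cells. In liver cells it was -0.72, against -0.67 for all genes. Against GFP+ primary cells it was -0.79, -0.62, -2.18 and -0.28 in peritoneum, kidney, liver and spleen cells.

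Sparc, a secreted matrix protein made by mesenchymal cells, was the list gene called most often. It had 8.95, 24.6 and 22.1 CPM in CD45+ cells, 1378, 6751 and 1616 CPM in GFP+ primary cells, 391, 7314 and 2818 CPM in peritoneum cells and 9120 and 4285 CPM in the spleen. It rose by 7.14 (SE 1.63, edgeR adjusted p = 0.0181), 6.98 (SE 1.62, edgeR adjusted p = 0.0389) and 7.89 (SE 1.71, edgeR adjusted p = 0.0346) on the log2 scale. In GFP+EpCAM+ cells it was called as well (5.70, SE 1.53, edgeR adjusted p = 0.0305), although mouse 1 had only 0.899 CPM. Fibroblast markers moved with Sparc in these groups, as given above, and their part in it was not tested.

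Sox9, a transcription factor of ductal and progenitor cells, rose by 4.72 (SE 1.32, edgeR adjusted p = 0.0497) in GFP+ primary and by 6.03 (SE 1.41, edgeR adjusted p = 0.0159) in GFP+EpCAM+ cells. It had 2.68, 31 and 8.63 CPM in CD45+ cells, 166, 496 and 827 CPM in GFP+ primary cells and 329, 2123 and 439 CPM in GFP+EpCAM+ cells, so the groups did not overlap. Ccl5, a chemokine of T cells, fell by 10.84 (SE 2.67, edgeR adjusted p = 0.0281) and 10.24 (SE 2.63, edgeR adjusted p = 0.0254) in the same groups. CD45+ cells had 204 CPM, 0.362 CPM and 247 CPM of it, and GFP+ primary cells at most 0.189 CPM. Cd68, a macrophage protein, fell by 9.13 (SE 2.26, edgeR adjusted p = 0.0293) in EpCAM+ cells, with 1.43, 0.841 and 11.3 CPM against 975, 3384 and 1874 CPM. Without mouse 3, the calls of Sparc, Sox9 and Ccl5 were lost in each of these comparisons. Without mouse 2, those of Sparc and Sox9 were lost, and that of Ccl5 in GFP+ primary cells. Without mouse 1, Sox9 was lost in GFP+ primary cells and Ccl5 in both groups. The differences kept their direction, and the Cd68 call stood without any 1 mouse.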

How the data were processed

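DNA and RNA were read from the same cells of 3 mice. Per the labels, reads were 76 bp single-end and nonexonic reads were taken as DNA. The deposited DNA table holds counts per bin on mm9, and the deposited RNA table holds expected counts per gene (97.4% of values whole), rounded here to whole numbers. STAR, kallisto and Bowtie 1.0 are named in the submitters' processing notes, without a stated role.

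Cells needed 50000 DNA reads, or for RNA 500 detected genes and 10000 counts. In mouse 1, 2 pairs of peritoneum libraries differed by less than the sampling noise and were counted as 1 sample each. Genes were placed on chromosome 11 by symbol with RefSeq (99.5% of 24424 genes matched); 92 spike-in rows were left out. The 100 cells under the DNA minimum were left out of the DNA results, and 0 columns of per-sample values were left unmapped.

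The replicate is the mouse. Counts were summed per mouse and group (at least 3 cells) and fitted in 1 model of 8 groups with edgeR 4.0.16 in R 4.3.3, with autosomal totals as library size for bins and TMM factors for RNA. DESeq2 1.42.0 and limma 3.58.1 (pseudocount 0.05) served as alternatives. DNA sums held 1519668 to 46054230 reads, and 1 cell gave up to 46.6% of a sum (EpCAM+ mouse 2). The biological coefficient of variation was 0.207 for bins and 1.14 for genes. The DNA and RNA fits were tried on simulated data for GFP+ primary against CD45+ cells. Of 100 bins changed 1.5 times, 23% were recovered, and of 100 changed 3 times, 100%. Of 100 genes changed 64 times, 30% were recovered, and of 100 changed 1024 times, 95%. A bin or gene without a call can therefore still differ by the smaller of these amounts.

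Same-numbered groups come from the same mouse, so the numbers pair them: deviations from group means correlated at a median r of 0.107 within a mouse (-0.445 to 0.629, 66 pairs) and -0.0379 between mice (126 pairs). The mouse as a block was an alternative.

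Named bins were, per comparison, up to 5 called bins in each direction with the largest difference and the same direction in every mouse, plus the first and last bin and the highest and lowest in CD45+ cells. Named genes were Trp53 and the called genes of the list. The members and lists were chosen with earlier results of these data known.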

Additional observations from a re-analysis of the deposited data

Results flagged for a closer look

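Within sets of 4 to 10 cells of 1 mouse and group, 1 of 16 tests for a cell far from the others marked a value, and chance marks about 1 in 20. In EpCAM+ primary cells of mouse 1, cell 60 had a chromosome 11 median-bin ratio of 0.759, while the other 9 cells lay between 0.990 and 1.18. The cell had 516130 DNA reads. What sets it apart was not tested.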

How the results depend on the processing

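None of the differences of named bins and list genes that were rerun changed sign. Medians over the chromosome did; those against GFP+ primary cells, near 0 for bins, turned under several settings. Against CD45+ cells these were, for bins, GFP+EpCAM+ under TMM factors (0.06) and DESeq2 (0.08), EpCAM+ with limma (-0.01) and liver without RNA-rich cells (-0.00102). For RNA, the peritoneum turned under DESeq2 (-0.61) and without mouse 3 (-0.01). With the mouse as a block GFP+ primary (0.04), EpCAM+ (0.00366), kidney (0.09) and spleen (0.15) turned, without mouse 1 these (0.20, 0.03, 0.27 and 0.56) and liver (0.09), and without mouse 2 the spleen (0.24). Of the rerun counts called, group mean ratios and group spreads, 264 stayed within the limit for a moved value and 91 did not. A count stayed if it was within 1.5 times of the main one, and a 0 that remained 0 stayed too. A mean ratio or spread stayed if it shifted by less than its SD over mice, a wide limit in groups with a large SD. For bins called on chromosome 11 against CD45+ cells, DESeq2 gave 10 in GFP+ primary, 28 in GFP+EpCAM+, 2 in EpCAM+, and 11 (peritoneum), 1 (kidney), 9 (liver) and 35 (spleen), and 6 for liver against GFP+ primary. The bin counts that follow, also those with 1 mouse left out, come here without the share of all bins called under the same setting. They show how the calls moved and are not a result about the chromosome. A fit of only the groups compared gave 13 in GFP+ primary, 0 in GFP+EpCAM+, 21 in peritoneum, 0 in spleen, and 10 for liver against GFP+ primary. TMM factors gave 1 in the peritoneum and 12 in the spleen. A minimum of 200000 reads gave 7 in GFP+EpCAM+ cells, and limma with each cell alike gave 6 there and 1 in EpCAM+ cells. With the mouse as a replicate block, 23 bins were called in GFP+EpCAM+, 1 in EpCAM+, 2 in liver and 6 in spleen cells, and RNA calls were 24 (peritoneum), 3 (kidney), 2 (liver) and 12 (spleen). The block changed no other count by over 1.5 times. With spiked bins left out, an alternative chosen after seeing the data, 3 were called in GFP+ primary, 3 in GFP+EpCAM+, 2 in liver and 13 in spleen cells. With RNA-rich cells left out, also chosen after seeing the data, 0 were called in GFP+ primary, 0 in peritoneum and 4 in liver cells. That setting could not be fitted for GFP+EpCAM+ and spleen cells. For RNA, DESeq2 called 182 chromosome 11 genes in GFP+ primary, 322 in GFP+EpCAM+, 227 in EpCAM+ cells and 194 (peritoneum), 125 (kidney), 151 (liver) and 165 (spleen) at the other sites, and 11, 14, 53 and 14 in peritoneum, kidney, liver and spleen against GFP+ primary. No filter gave 25 in the peritoneum (1.45%, beside 0.856% of all genes).

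Leaving out 1 mouse gave ranges of bins called against CD45+ cells of 0 to 2 in GFP+ primary, 0 to 12 in GFP+EpCAM+, 0 to 2 in EpCAM+, 0 to 1 in peritoneum, 0 to 1 in liver and 0 to 26 in spleen cells (26 without mouse 3). For RNA the ranges were 2 to 28, 2 to 45, 2 to 15, 0 to 14, 0 to 6, 0 to 3 and 0 to 22 in GFP+ primary, GFP+EpCAM+, EpCAM+, peritoneum, kidney, liver and spleen cells. These RNA ranges come without the share of all genes called and are not a result about the chromosome. The mean ratio ranged from 1.03 to 1.11 in CD45+, 1.16 to 1.3 in GFP+ primary, 1.08 to 1.18 in GFP+EpCAM+, 0.971 to 1.04 in EpCAM+, 1.18 to 1.28 (peritoneum), 1.20 to 1.23 (kidney), 1.06 to 1.11 (liver) and 1.18 to 1.38 (spleen). The spread between cells ranged from 0.0615 to 0.163, 0.138 to 0.168, 0.154 to 0.189, 0.176 to 0.220, 0.169 to 0.266, 0.226 to 0.242, 0.159 to 0.294 and 0.178 to 0.206 in the same order.

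The mean ratio moved to 1.16 in kidney cells of at least 200000 reads. With bins divided by their CD45+ mean it was 1.15 in kidney and 1.03 in liver cells. Without RNA-rich cells it was 1.02 in GFP+EpCAM+, and 1.06 (peritoneum), 1.18 (kidney), 1.04 (liver) and 1.14 (spleen) elsewhere. The spread moved to 0.174 in kidney and 0.159 in spleen cells with the higher read minimum, to 0.282 and 0.213 with median bins, to 0.264 and 0.236 without spiked bins, and to 0.152 and 0.171 without RNA-rich cells, which gave 0.0719 in GFP+ primary and 0.277 in GFP+EpCAM+ cells. The causes were not tested. Of the values of named bins and genes, 151 kept their side of the threshold and 78 lost the call. Liver results rest on 5 cells per mouse.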

Other observations

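The 6 bulk libraries belong to no comparison, since most groups have 1. The chromosome 11 mean ratio was 1.02 in bulk CD45+ primary cells, 1.1 in GFP+ peritoneum cells of mouse 1 and 0.953 in GFP- peritoneum cells. Bulk GFP+ primary cells had 1.03 in mouse 1 and 1.21 in mouse 2, in the order of the single-cell means of those mice (1.05 and 1.33). The GFP- primary library, at 1.05, held 19523 reads, or a median of 4 per chromosome 11 bin.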
